A study of Mus musculus with 8 samples.

Results

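The genes described here are 34 peroxins and other peroxisomal proteins, chosen by name and measured in microglia, which are macrophages resident in brain tissue. They were selected as peroxisome assembly factors, peroxisomal membrane proteins and enzymes outside the core beta-oxidation and ether lipid pathways, and all 34 were among the 19938 genes with a probe set of their own. Each of the 34 was represented by 1 probe set. Microglia came from female-labelled Swiss Webster mice aged 17 weeks, 4 samples labelled MFP2 knockout and 4 labelled control, whose genotype is given as wild type. MFP2, or multifunctional protein-2, is the product of Hsd17b4 and catalyses consecutive steps of beta-oxidation in peroxisomes. The labels name no promoter or Cre for the knockout and no treatment in either group. Cells were sorted from whole brain by high CD11b and intermediate CD45, and 1 Affymetrix array was hybridised per sample after amplification of 5.775 ng of RNA.

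Peroxisomes are single-membrane organelles that shorten very long-chain fatty acids, build ether lipids and break down hydrogen peroxide. Peroxins insert the membrane proteins, carry folded enzymes into the matrix and divide the organelle, and loss of most of them causes peroxisome biogenesis disorders. In the brain, loss of peroxisomal function is known to affect myelin and neurons. The comparison asks how far the other parts of the peroxisome changed at the RNA level when a single beta-oxidation enzyme was missing.

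Values are log2 expression made by the authors with RMA, so a difference of 1 is a doubling, and differences are given as knockout minus control with the standard error (SE) of the limma fit. Rose and fell are used of a gene whose limma p, adjusted by the Benjamini-Hochberg method over all 19938 genes, was under 0.05. The number of arrays, 4 in each group, limits the precision. The labels number the replicates without naming animals, so p-values reflect only the spread among these samples, which may be technical.

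The arrays were checked before the results. Hsd17b4 lay between 4.76 and 7.20 in knockout arrays and between 7.82 and 9.09 in control arrays, with knockout 2 the highest of its group (limma adjusted p = 0.00158). Where its probe set lies relative to the deleted part is not known here. The sex-linked transcripts of control 1 did not match its female label, with Xist at 6.80 there against 10.55 or more on every other array. The Y-linked Eif2s3y, Kdm5d and Uty were at 8.14, 7.41 and 6.49 on control 1, against at most 2.99, 4.43 and 3.53 on the others. The control group thus includes 1 array with a male pattern. Over all genes, control 3 was the control array nearest to the knockouts on the first principal component, at -9.62 against -23.2 or lower for the other controls. Calls are therefore also given without these arrays. Control 3 and knockout 2 were picked for lying toward the other group, control 3 over all genes and knockout 2 in Hsd17b4. Leaving them out can favour a difference, so a call that holds or appears without them is no separate support. The 9 measured microglial markers had a mean log2 level of 10.86 to 11.24 in knockout and 11.58 to 11.77 in control arrays, and 8 of them were called lower. The mean of 8 astrocyte markers was 6.26 to 6.67 in knockout and 6.09 to 6.20 in control arrays (2 called higher), and that of 8 border-macrophage markers 5.86 to 6.48 in knockout and 6.30 to 6.85 in control arrays (2 called higher, 4 lower). The mean of 8 neutrophil markers was 8.58 to 9.54 in knockout and 7.65 to 10.44 in control arrays, and limma called 0 of them, with 0 at an unadjusted p under 0.05. Monocyte markers had 1 called higher (Fn1, 2.56) and 1 lower (Ccr2, -0.59), and endothelial markers 1 higher (Flt1, 1.99) and 1 lower (Pecam1, -1.56). Oligodendrocyte markers had 1 called higher (Mbp, 0.59), while lymphocyte and neuron markers, mostly below the median level, had 0. RMA values have no true 0, and the part of these cell types in the results was not tested. In sorted bulk samples, fewer cells of a type and less RNA per cell cannot be told apart.

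For most of these genes, the measured change in knockout microglia was small. Of the 34 genes, 2 rose, 1 fell and 31 did not pass the test. Nudt19, a coenzyme A diphosphatase, rose by 0.70 ± 0.13 (SE) and Fis1, a fission adaptor, by 0.64 ± 0.13, while Pxmp4, a peroxisomal membrane protein, fell by 0.32 ± 0.08. The share called was 8.82%, against 9.55% of all genes tested, with 5.38% of all genes higher and 4.17% lower. The members' share is near that background. The median log2 change of the 34 genes was -0.01, against -0.02 over all genes.

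The 95% intervals give, for each gene taken alone, a range for the change in RMA values. Among the 31 genes that did not pass, no interval reached below -0.56, for Pex2, or above 0.51, for Abcd4. These bounds correspond to a 1.47-fold decrease and a 1.42-fold increase. A larger true change is not excluded, since the intervals are not adjusted for their number and RMA understates changes of dim genes. Of the 31 changes, 14 were above 0 and 17 below, and 4 of the 31 intervals (12.9%) excluded 0 before adjustment, against 12.7% of all uncalled genes. The plot of changes by role shows the intervals side by side.

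**Figure D1:**
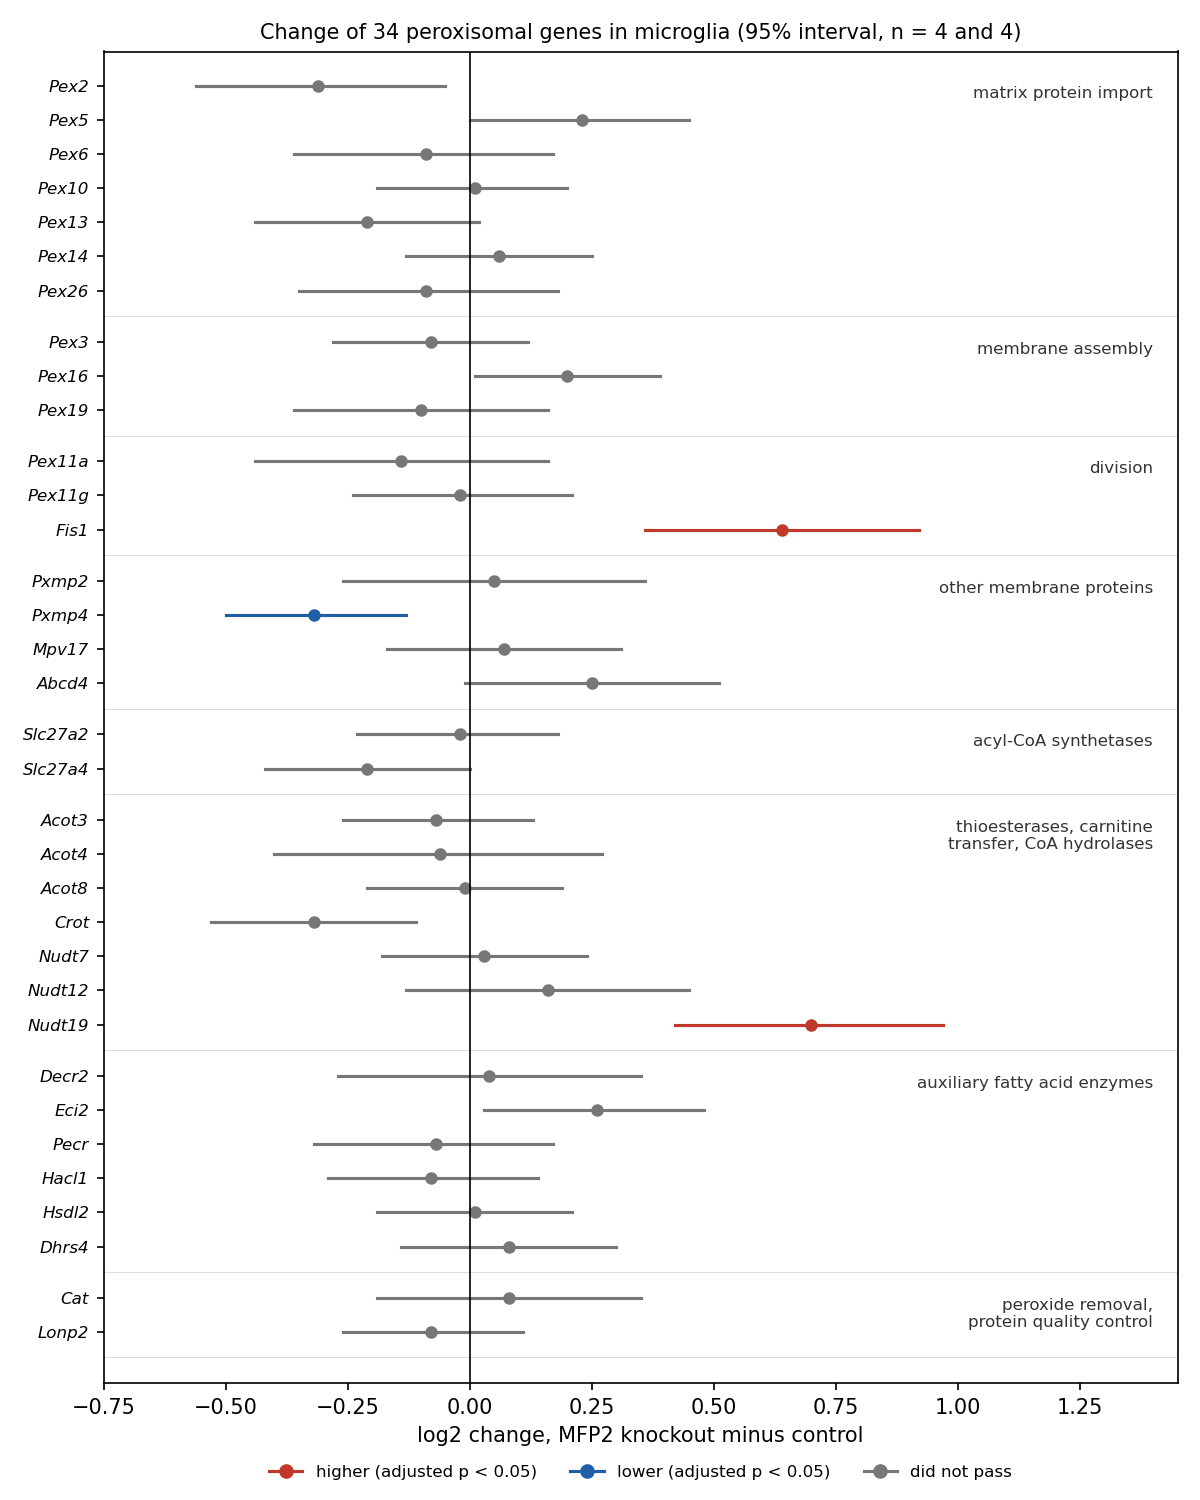
Log2 change (MFP2 knockout minus control, x axis) of the 34 peroxisomal genes in rows by role, with points for the limma estimate and bars for the 95% interval (n = 4 arrays each). Nudt19 at 0.70 and Fis1 at 0.64 stand to the right, Pxmp4 at -0.32 to the left, and the other intervals stay between -0.56 and 0.51.

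Size of change was compared with that of all genes as a description. The median size was 0.08 for the 34 genes and 0.11 for all genes. Of the 34, 28 had a mean level above the median of all genes (6.24), and among these the median size was 0.09, against 0.16 for all genes above that level. In the same subset 10.7% were called, against 16.9% of all genes above that level. The level is a mean over knockout and control arrays together. Nudt19, among the called genes, lay above 6.24 in knockouts (mean 6.70) and below it in controls (6.01). It is in the subset through its knockout arrays, so its call there is no separate support. A change of at least 0.5 in size was seen for 2 of the 34 genes (5.88%) and for 6.9% of all genes, and none of the 34 reached 1. The 6 dimmer members were Pex10, Pxmp2, Slc27a2, Acot3, Acot4 and Nudt12, for which RMA values understate changes.

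**Figure D2:**
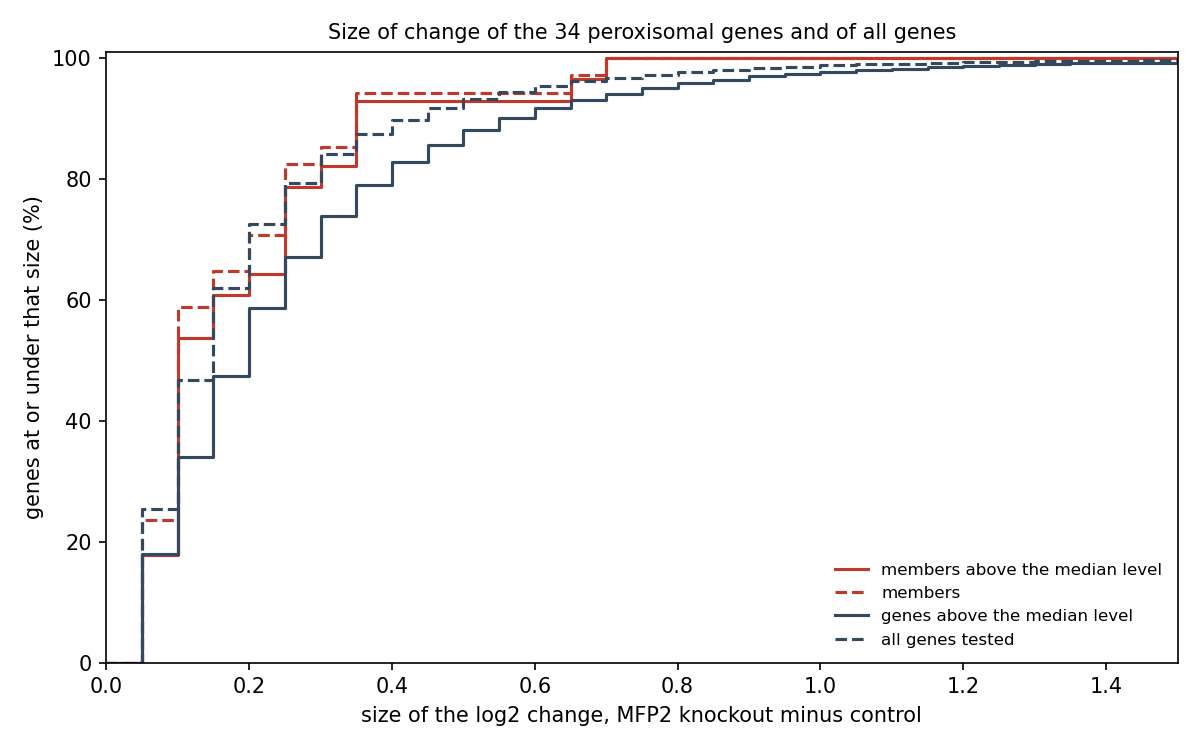
Cumulative share of genes (y axis, %) at or under a given size of log2 change (x axis, steps of 0.05), for the 34 peroxisomal genes in red and all genes in dark blue, with solid lines for genes above the median level. The solid red line lies above or on the solid dark line from 0.1 upward, with median sizes of 0.09 and 0.16.

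Nudt19 had the largest increase of the group. The enzyme hydrolyses coenzyme A and its esters and has been described in mouse kidney peroxisomes. Its log2 level was 6.42, 6.58, 6.89 and 6.93 in knockout 1 to 4, against 6.09, 6.13, 5.80 and 6.00 in control 1 to 4. Every knockout array was above every control array, with a mean of 6.70 ± 0.25 in knockouts and 6.01 ± 0.15 in controls (SD, n = 4 each). The 1.62-fold difference passed the limma test (adjusted p = 0.00395). It held without control 1 (0.72, adjusted p = 0.0108) and without control 3 and knockout 2 (0.67, adjusted p = 0.0148), and it missed the threshold without all 3 arrays (0.68, adjusted p = 0.0504).

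The RefSeq promoter window of Nudt19, from 250 bases before to 50 bases after the gene's start, is shown because this gene changed most. It lies at chr7:35555879-35556178 (GRCm38.p6, minus strand) and was 57.0% G and C with 13 CpG dinucleotides.
Nudt19 promoter: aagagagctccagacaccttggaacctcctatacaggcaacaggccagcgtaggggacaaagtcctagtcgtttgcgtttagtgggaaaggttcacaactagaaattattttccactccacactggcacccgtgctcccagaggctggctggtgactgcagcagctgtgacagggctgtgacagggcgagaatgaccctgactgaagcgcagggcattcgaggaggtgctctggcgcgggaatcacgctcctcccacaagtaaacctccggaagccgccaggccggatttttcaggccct
Lower case without capitals means that neither of the searched motifs was found in it.

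Related hydrolases did not pass the test. Nudt7, the coenzyme A diphosphatase of liver peroxisomes, averaged 6.47 ± 0.12 in knockout and 6.45 ± 0.11 in control arrays, a change of 0.03 ± 0.10 (SE, adjusted p = 0.915). Nudt12, which cleaves NADH, averaged 4.79 ± 0.21 in knockout and 4.63 ± 0.23 in control arrays, a change of 0.16 ± 0.13 (adjusted p = 0.589). The Nudt19 change was 0.67 above that of Nudt7 and 0.54 above that of Nudt12. These pairs were picked after the values were seen, and the differences are given with no test. Taken array by array, Nudt19 minus Nudt12 overlapped between the groups.

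Fis1 was the other gene that rose. Its protein sits in the outer membrane of mitochondria and in the peroxisomal membrane and takes part in fission of both organelles, so its level is not that of a peroxisomal gene alone. Log2 values were 9.46, 9.49, 9.79 and 9.90 in knockout 1 to 4, against 8.84, 9.02, 9.29 and 8.94 in control 1 to 4. The groups did not overlap, and control 3 was the highest control array, 0.17 below the lowest knockout array. Means were 9.66 ± 0.22 in knockouts and 9.02 ± 0.19 in controls, a 1.56-fold difference (limma adjusted p = 0.00674). The call held without control 1 (0.58, adjusted p = 0.0259), without control 3 and knockout 2 (0.79, adjusted p = 0.00411) and without all 3 (0.74, adjusted p = 0.0225).

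For Fis1, RefSeq gives windows at 2 starts, and the upstream one is shown as the counterpart to Nudt19. It lies at chr5:136953025-136953324 (GRCm38.p6, plus strand) and was 65.0% G and C with 21 CpG dinucleotides.
Fis1 promoter: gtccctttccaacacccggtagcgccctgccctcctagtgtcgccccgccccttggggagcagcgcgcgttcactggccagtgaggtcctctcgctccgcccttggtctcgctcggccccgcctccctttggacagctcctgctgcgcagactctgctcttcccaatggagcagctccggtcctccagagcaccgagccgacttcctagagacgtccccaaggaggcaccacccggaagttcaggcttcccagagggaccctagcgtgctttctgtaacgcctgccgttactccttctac
Neither motif was found here either.

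The other division genes gave smaller values. Pex11a, which elongates peroxisomes before they divide, had a log2 level of 6.64, 6.23, 6.06 and 6.12 in knockout 1 to 4, against 6.30, 6.66, 6.42 and 6.23 in control 1 to 4. Knockout 1 and control 2 stood high and the groups overlapped, with a change of -0.14 ± 0.14 (SE, limma adjusted p = 0.651). Pex11g, a member of the same family, averaged 6.98 ± 0.16 in knockouts and 7.00 ± 0.13 in controls (SD, n = 4 each). Among 8 other division and tethering factors, 0 rose and 0 fell (limma adjusted p, with 0 at an unadjusted p under 0.05), where 9.55% of all genes were called and 21.0% had an unadjusted p under 0.05. With so few genes these counts are near the background. The 8 include the fission GTPase Dnm1l (0.05 ± 0.11, limma adjusted p = 0.861) and its receptor Mff (-0.21 ± 0.10, adjusted p = 0.24, unadjusted p = 0.0506). The Fis1 change was 0.85 above that of Mff and 0.59 above that of Dnm1l, again for pairs picked after the values were seen and with no test. Taken array by array, Fis1 minus Dnm1l overlapped between the groups.

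**Figure D3:**
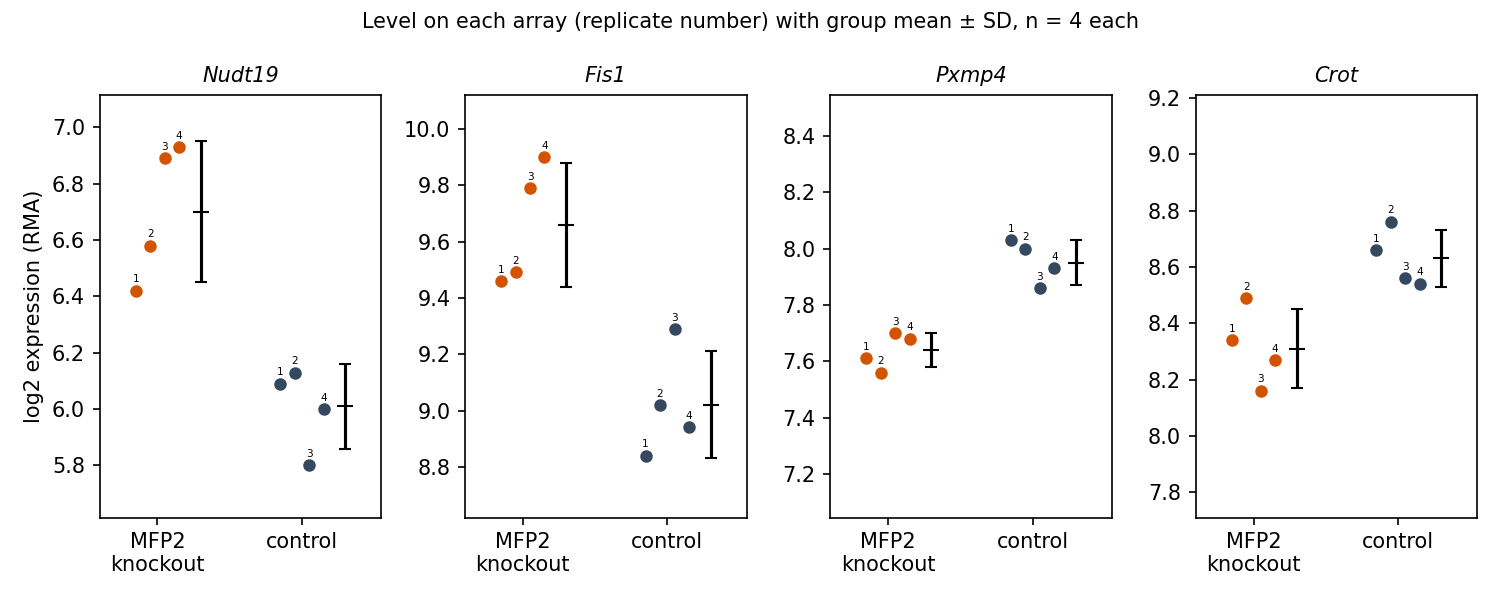
Log2 expression (RMA, y axis, the same span in every panel) on each array for Nudt19, Fis1, Pxmp4 and Crot, knockout arrays left and control arrays right, with replicate numbers and the group mean ± SD (n = 4 each). The groups do not overlap in any of the 4 panels, with Nudt19 and Fis1 higher and Pxmp4 and Crot lower in knockout arrays.

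Pxmp4 was the only member that fell. It encodes a small integral protein of the peroxisomal membrane. Its log2 level was 7.61, 7.56, 7.70 and 7.68 in knockout 1 to 4, against 8.03, 8.00, 7.86 and 7.93 in control 1 to 4. All knockout arrays lay below all control arrays, and the spread within each group was small, with means of 7.64 ± 0.06 in knockouts and 7.95 ± 0.08 in controls. The decrease was 1.24-fold (limma adjusted p = 0.0319). The call was lost when any single array other than control 3 was left out (adjusted p = 0.0551 to 0.103, with 0.103 without control 1), while the change stayed between -0.35 and -0.29. It was also lost without control 3 and knockout 2 (-0.32, adjusted p = 0.0725) and without all 3 arrays (-0.30, adjusted p = 0.232).

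The promoter window of Pxmp4 is shown as that of the gene that fell. It lies at chr2:154603624-154603923 (GRCm38.p6, minus strand) and was 53.3% G and C with 9 CpG dinucleotides.
Pxmp4 promoter: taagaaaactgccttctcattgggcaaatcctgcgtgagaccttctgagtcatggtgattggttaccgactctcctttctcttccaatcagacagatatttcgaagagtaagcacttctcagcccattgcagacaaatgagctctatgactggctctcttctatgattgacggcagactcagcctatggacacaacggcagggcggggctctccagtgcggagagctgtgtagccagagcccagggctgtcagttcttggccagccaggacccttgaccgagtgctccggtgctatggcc
Like those of the genes that rose, it held neither motif.

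Crot separated the groups without passing the test. It transfers shortened acyl chains to carnitine so that they can leave the peroxisome. Log2 values were 8.34, 8.49, 8.16 and 8.27 in knockout 1 to 4, against 8.66, 8.76, 8.56 and 8.54 in control 1 to 4. The highest knockout array, knockout 2, was 0.05 below the lowest control array, and the change was -0.32 ± 0.10 (SE, limma adjusted p = 0.0608). Without knockout 2 the change was -0.38 and passed (adjusted p = 0.0345), and without control 3 and knockout 2 it was -0.40 (adjusted p = 0.0444). In all, 4 of the 34 genes (11.8%) had groups that did not overlap, 2 higher and 2 lower, against 14.0% of all genes, 7.09% higher and 6.92% lower.

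None of the 12 peroxins passed the test, against 9.55% of all genes, and with so few genes the count is near that background. The 95% interval was within 0.58 in size on the log2 scale, that is within 1.5-fold either way, for 12 of 12. The same held for all 31 uncalled members, so it does not set the peroxins apart. Their changes ran from -0.31 to 0.23 with a median of -0.08, 4 of them above 0. The lowest adjusted p among them was 0.141 (limma). The groups overlapped for all 12, against 14.0% of all genes with groups that did not.

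Matrix protein import was represented by 7 peroxins. Pex5, the soluble receptor that recognises the common targeting signal of matrix enzymes, had log2 levels of 6.51, 6.76, 6.64 and 6.69 in knockout 1 to 4, against 6.45, 6.58, 6.49 and 6.17 in control 1 to 4. All 4 knockout arrays were above the control mean, control 4 was low, and the change was 0.23 ± 0.10 (SE, limma adjusted p = 0.239). Pex13, a docking protein for the loaded receptor, had 7.54, 7.92, 7.83 and 7.96 in knockout 1 to 4, against 8.08, 8.09, 7.90 and 8.03 in control 1 to 4. No knockout array was above the control mean, knockout 1 was low, and the change was -0.21 ± 0.11 (adjusted p = 0.283). Pex14, its docking partner, averaged 7.24 ± 0.11 in knockouts and 7.18 ± 0.06 in controls (SD, n = 4 each).

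Pex2 and Pex10 are membrane ubiquitin ligases that mark Pex5 for return to the cytosol. Pex2 had log2 levels of 7.23, 7.18, 7.45 and 7.17 in knockout 1 to 4, against 7.74, 7.73, 7.28 and 7.50 in control 1 to 4. Control 3 stood among the knockout arrays, and the change was -0.31 ± 0.12 (SE, limma adjusted p = 0.141). Without control 3 it was -0.40 and passed (adjusted p = 0.0379). Pex10 averaged 6.23 ± 0.11 in knockouts and 6.23 ± 0.08 in controls (SD, n = 4 each). Pex6, an ATPase that pulls Pex5 out of the membrane, averaged 7.60 ± 0.21 in knockouts and 7.69 ± 0.17 in controls, while Pex26, its membrane anchor, averaged 6.36 ± 0.13 in knockouts and 6.45 ± 0.24 in controls. Neither difference reached the spread within the groups.

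Membrane assembly was represented by Pex3, Pex16 and Pex19, which receive and insert peroxisomal membrane proteins. Pex16 had log2 levels of 7.91, 7.82, 7.97 and 7.70 in knockout 1 to 4, against 7.74, 7.68, 7.61 and 7.59 in control 1 to 4. Its groups overlapped only through knockout 4, below control 1, and the change was 0.20 ± 0.09 (SE, limma adjusted p = 0.223). Pex3, the docking protein, averaged 7.18 ± 0.14 in knockouts and 7.26 ± 0.06 in controls (SD, n = 4 each). Pex19, the chaperone and import receptor, averaged 7.94 ± 0.20 in knockouts and 8.04 ± 0.18 in controls.

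**Figure D4:**
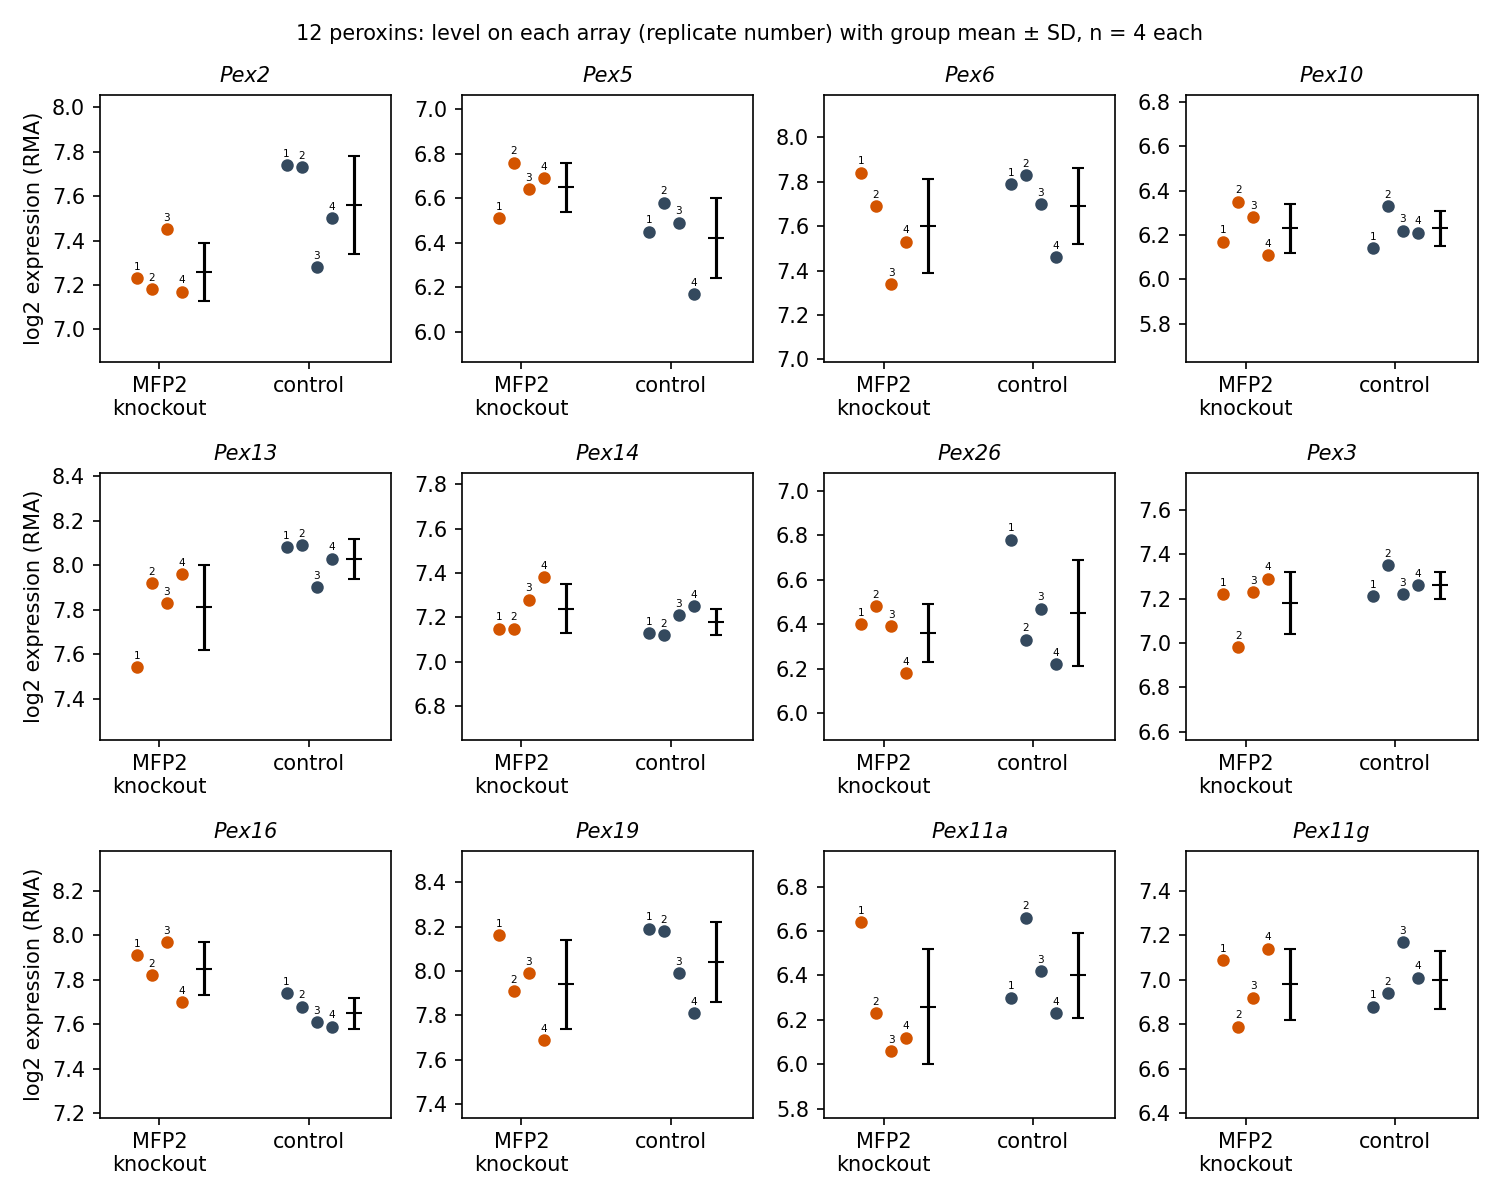
Log2 expression (RMA, y axis, the same span in every panel) of the 12 peroxins on each array, knockout arrays left and control arrays right, with replicate numbers and group mean ± SD (n = 4 each). The groups overlap in every panel, and the mean changes lie between -0.31 for Pex2 and 0.23 for Pex5.

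The other membrane proteins did not pass the test apart from Pxmp4. Pxmp2, a channel of the peroxisomal membrane, averaged 5.02 ± 0.31 in knockouts and 4.97 ± 0.16 in controls. Mpv17, found in peroxisomes at first and later placed in the inner mitochondrial membrane, averaged 8.17 ± 0.20 in knockouts and 8.10 ± 0.11 in controls. Abcd4, related to the peroxisomal fatty acid importers but known for lysosomal cobalamin export, averaged 7.44 ± 0.14 in knockouts and 7.19 ± 0.23 in controls (0.25 ± 0.12, SE, limma adjusted p = 0.265). Abcd4 had all 4 knockout arrays above the control mean, though the groups overlapped. Of the 34 genes, 6 had all 4 knockout arrays above the control mean and 5 had none. The share over all genes was not counted, so these positions are a description only.

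Acyl-CoA synthetases and thioesterases make and cleave the thioesters on which these pathways run. Slc27a4, a very long-chain acyl-CoA synthetase found mostly in the endoplasmic reticulum, had log2 levels of 7.02, 7.22, 7.07 and 7.15 in knockout 1 to 4, against 7.34, 7.53, 7.28 and 7.15 in control 1 to 4. No knockout array was above the control mean, and the change was -0.21 ± 0.10 (SE, limma adjusted p = 0.245). Slc27a2, a peroxisomal synthetase best known from liver, was dim in both groups at 4.22 ± 0.11 in knockouts and 4.24 ± 0.12 in controls. Acot8, the broad thioesterase of the peroxisome, averaged 6.67 ± 0.12 in knockouts and 6.68 ± 0.10 in controls. Acot3 and Acot4, members of a cluster of near-copies whose signals an array may mix, had changes of -0.07 ± 0.09 and -0.06 ± 0.15 and were dim in both groups.

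Several of the auxiliary enzymes remodel unsaturated or branched acyl chains. Limma called 0 of the 6 members, against 9.55% of all genes. At an unadjusted limma p under 0.05 there was 1, against 21.0% of all genes. These counts are near the background. The gene at an unadjusted p under 0.05 was Eci2, an enoyl-CoA isomerase, at 7.96, 7.88, 8.07 and 8.01 in knockout 1 to 4, against 7.82, 7.93, 7.53 and 7.62 in control 1 to 4. Control 2 reached into the knockout range, and the change was 0.26 ± 0.10 (SE, adjusted p = 0.163). The other 5 had changes of -0.08 to 0.08. They were Decr2, a dienoyl-CoA reductase, Pecr, an enoyl-CoA reductase, Hacl1, which cleaves the hydroxyacyl-CoA of alpha-oxidation, Dhrs4, a carbonyl and retinal reductase, and Hsdl2, a dehydrogenase-like protein.

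Catalase, which decomposes the hydrogen peroxide made by peroxisomal oxidases, did not pass the test. Cat had log2 values of 9.09, 9.13, 9.17 and 8.95 in knockout 1 to 4, against 9.14, 9.30, 8.84 and 8.74 in control 1 to 4. The knockout arrays lay inside the wider control range, and the change was 0.08 ± 0.12 (SE, limma adjusted p = 0.805), with a 95% interval of -0.19 to 0.35. Lonp2, the protease that clears damaged matrix proteins, averaged 7.95 ± 0.06 in knockouts and 8.02 ± 0.09 in controls (SD, n = 4 each), a change of -0.08 ± 0.09.

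Promoter windows were searched for the PPAR response element, AGGTCANAGGTCA with at most 2 mismatches, and for the E-box CACGTG, on both strands. Of the 34 genes, 29 had RefSeq windows, 36 in all. The repeat was found in 2 of the 36 windows (5.56%), those of Cat and Acot4, against 3.36% of 19116 windows of all tested genes. The E-box was found in 3 (8.33%), those of Acot4, Mpv17 and a second start of Lonp2, against 8.26% of all windows. The Cat window at chr2:103485104-103485403 (GRCm38.p6, minus strand) is shown as a member with the repeat whose level did not pass the test, with the match in capitals.
Cat promoter: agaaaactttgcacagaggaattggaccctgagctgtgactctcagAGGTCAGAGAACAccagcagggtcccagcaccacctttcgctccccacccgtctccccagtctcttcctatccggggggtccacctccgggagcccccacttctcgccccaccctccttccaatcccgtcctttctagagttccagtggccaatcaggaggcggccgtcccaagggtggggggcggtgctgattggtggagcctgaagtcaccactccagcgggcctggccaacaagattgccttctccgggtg
None of the windows of Nudt19, Fis1, Pxmp4 and Crot held either motif. A match is a description of letters and does not show binding. Most windows of all genes held neither motif, so the lack of a match does not set these genes apart. Sites outside the windows were not searched.

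Within the control group, control 2 often stood highest and control 4 lowest for the 34 genes. Control 2 was the highest control array for 16 of the 34 (47.1%), against 27.5% of all genes, and control 4 was the lowest for 14 (41.2%), against 22.5% of all genes. The median level of the 34 genes was 7.37 on control 2 and 7.20 to 7.22 on the other control arrays, against 7.13 to 7.27 on knockout arrays. Standard errors of members ran from 0.08 to 0.15.

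Peroxisomal genes outside the 34 were counted for comparison, from a list of 64 of which 55 were tested. Of these 4 were higher and 4 lower, or 14.5%, against the 9.55% of all genes, and the list includes Hsd17b4 itself. Higher were Pex7, the second import receptor, the fatty acid importer Abcd2, the alpha-oxidation enzyme Phyh, and Trim37. Besides Hsd17b4, lower were the ether lipid genes Agps and Far1, and Tmem135. The Pex7 call (0.30, adjusted p = 0.0491) held in 6 of 18 alternatives. It was lost with the replicate block (0.0788), when any single array other than control 2 was left out (up to 0.139, without control 1), without control 3 and knockout 2 (0.27, adjusted p = 0.181) and without control 1, control 3 and knockout 2 (0.22, adjusted p = 0.458). The Far1 call (-0.46, adjusted p = 0.0184) held in 14 of 18 and was lost without control 1 (0.0586), control 2 (0.0574) or knockout 3 (0.0568), and without control 1, control 3 and knockout 2 (-0.49, adjusted p = 0.104). Abcd2, Phyh and Agps passed in 18 of 18. The 19 further matrix oxidases and metabolic enzymes had 0 called (limma, with 1 at an unadjusted p under 0.05), against the same shares of all genes, 9.55% and 21.0%. Most of the 19 lay below the median level of 6.24, such as Hao1 at 3.14 in knockouts and 3.08 in controls. Of all genes below that level 2.2% were called, so the 0 does not show that these enzymes were unchanged.

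Trim37 encodes a ubiquitin ligase that in human cells stabilises Pex5. Its log2 levels were 6.79, 6.74, 6.75 and 6.80 in knockout 1 to 4, against 6.20, 6.35, 6.52 and 6.05 in control 1 to 4. The knockout arrays lay close together above all controls, a change of 0.49 ± 0.10 (SE, limma adjusted p = 0.01). Tmem135, a membrane protein found in peroxisomes and mitochondria, had 8.33, 8.36, 8.41 and 8.23 in knockout 1 to 4, against 8.92, 8.93, 8.55 and 9.0 in control 1 to 4. All knockout arrays were below all controls, of which control 3 was lowest, a change of -0.51 ± 0.11 (adjusted p = 0.00923). Both passed under 18 of 18 alternatives.

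**Figure D5:**
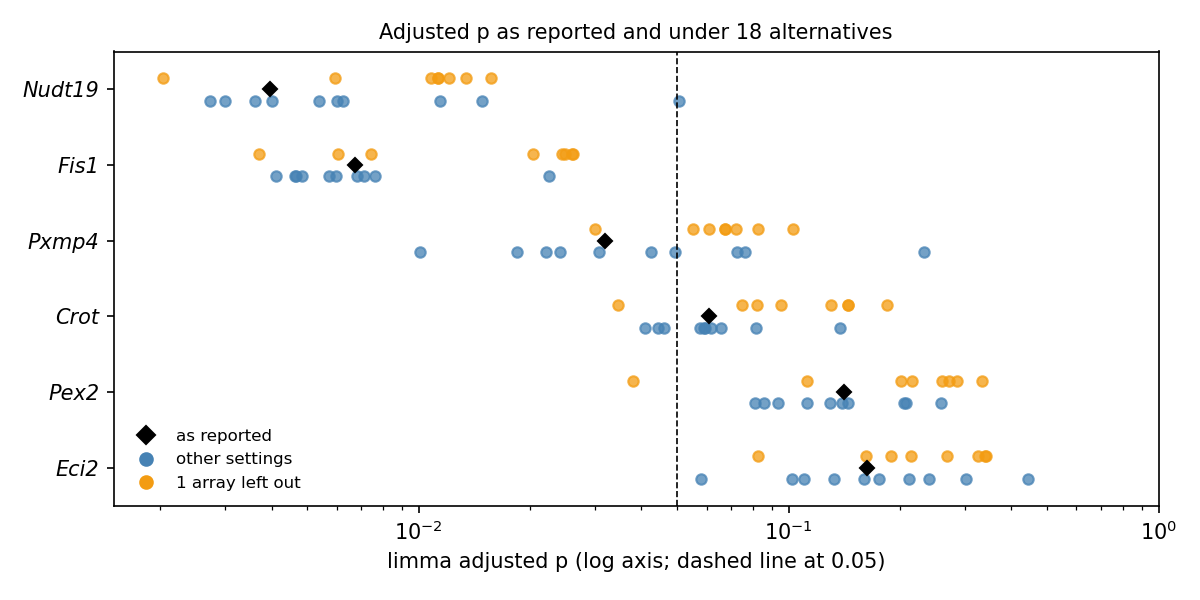
Limma adjusted p (x axis, log scale, dashed line at 0.05) of 6 genes as reported (diamonds) and under 18 alternative settings (circles, orange where 1 array was left out). Fis1 stays under 0.05 in 18 of 18 alternatives, Nudt19 in 17, Pxmp4 in 8, Crot in 4, Pex2 in 1 and Eci2 in 0.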

How the data were processed

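Gene expression was measured on 1 array per sample in sorted microglia, 4 MFP2 knockout and 4 control. The deposited table holds log2 values per probe set that the authors obtained by RMA, according to the submitters' processing notes. Which software and version were used is not stated in the sources here. Base 2 was inferred from the values, 2.04 to 13.99. RMA equalises the arrays and so hides any shift common to all genes. Of 28874 probe sets, 21789 had 1 symbol in the platform annotation, 1621 several and 5464 none. Symbols were checked by gene number against RefSeq (GRCm38.p6; 21698 matched, 0 changed), and the probe set with the highest mean was kept per gene, leaving 19938 genes.

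Knockout minus control was fitted with limma 3.58.1 in R 4.3.3 (lmFit, eBayes, two-sided, no covariate, no filter), with p-values adjusted by Benjamini-Hochberg across all genes and called under 0.05. The fit was also run on simulated independent values with no array, sex or cell-type effects, which checks the code and not these data. The members, lists and naming rule were chosen with earlier results of these data known. The rule named all 34 members, those called or with groups that did not overlap in full, and the called genes of the other peroxisomal lists. Promoter sequences are RefSeq's. Protein sequences were not used here. Alternatives were a filter on dim genes, 3 scalings, the mean of probe sets, another prior, a replicate block, array weights and arrays left out.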

Additional observations from a re-analysis of the deposited data

Results flagged for a closer look

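In 2 of 70 groups of 4 arrays tested, a gene's array lay far from the others of its group by Dixon's test (critical value 0.829), where chance flags about 1 in 20 groups. Dhrs4, the carbonyl reductase, was at 7.69 on control 1, against 7.44 to 7.46 on the other control arrays, and at 7.38 to 7.72 on knockout arrays. Nudt12, the NADH diphosphatase, was at 4.97 on control 4, against 4.49 to 4.56 on the other control arrays, and at 4.56 to 4.99 on knockout arrays.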

How the results depend on the processing

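The count of 2 higher members was the same under every alternative except that without control 1, control 3 and knockout 2 together, which gave 1 higher member (Fis1) and 0 lower. Under the filter on dim genes, Nudt19 was kept only through its knockout arrays, so its call there is no separate support. The count of 1 lower member was less stable. It was 2 without genes below the median level and 2 after quantile normalization, with Crot added both times, and 0 with the replicate block, under which Pxmp4 missed the threshold (adjusted p = 0.0764). With 1 array left out it ranged from 0 to 2. The replicate block changed no other member's call, and outside the members it ended that of Pex7 (adjusted p = 0.0788). Same-numbered arrays deviated from their group means with correlations of 0.158, -0.0645, 0.00587 and 0.00783 for numbers 1 to 4. Of the knockout arrays only number 1 correlated best with its own number. With 4 arrays in each group, these values cannot show whether same-numbered samples were handled together. Of the 31 uncalled members, 29 were called under none of the 18 alternatives and 2, Crot and Pex2, under at least 1, while 13 changed sign under at least 1 alternative without a call. Among those never called, the lowest adjusted p was 0.0579, for Eci2. Hsd17b4 passed under all 18 alternatives, between -3.52 and -2.60. Over all genes the 832 lower calls became 507 without knockout 3, 517 without control 2 and 544 without control 1, and the 1073 higher and 832 lower calls became 649 and 494 without the 3 arrays. The differences between paired genes kept their direction without each array in turn, an alternative chosen after seeing the data. The pairs were picked for their unequal changes, so a kept direction is no support. Dim members, few arrays and RMA's compression limit what could be detected.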
